A study of Arabidopsis thaliana with 3 samples.

Results

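Reads of a pair of genes from the auxin pathway that starts a lateral root, LBD16 (AT2G42430) and IAA28 (AT5G25890), divided the sorted cells into groups. The cells were chosen by these read counts alone. LBD16 cells were wells with at least 1 read of LBD16 and none of IAA28, and IAA28-only cells were wells with at least 1 read of IAA28 and none of LBD16. Of 573 wells, 322 had 500 or more genes with a read and were kept. Among them were 42 LBD16 cells (13.0%, 95% exact binomial interval 9.56 to 17.2) and 114 IAA28-only cells (35.4%, 30.2 to 40.9). Reads of both genes were found in 74 cells (23.0%, 18.5 to 28.0) and of neither in 92 (28.6%, 23.7 to 33.8). The assay was plate-based single-cell RNA sequencing of Arabidopsis thaliana Columbia-0 roots 5 days after germination. Every seedling carried a nuclear triple mCherry under the HB53 promoter, and mCherry-positive protoplasts were sorted as primordium cells of stages I to IV. No other genotype or treatment was included. The labels name 3 replicates of 1 group, but no label or file column read here links wells with replicates. All wells therefore count as 1 sample.

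With 1 sample there is no test of any difference below. Intervals are 95% intervals that cover the counting of cells or reads only, and PCR copies are counted as reads because no molecular identifiers are named. In place of replicate error, each value was also taken within the 3 flow cells, which held 15, 11 and 16 LBD16 cells and 34, 36 and 44 IAA28-only cells. Whether flow cells coincide with replicates is not known.

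In Arabidopsis roots, auxin leads to the destruction of Aux/IAA repressor proteins and so frees auxin response factors (ARFs) to switch on their targets. IAA28 is such a repressor, known from the step at which pericycle cells are specified as founder cells. LBD16 encodes a LATERAL ORGAN BOUNDARIES DOMAIN transcription factor that ARF7 and ARF19 activate, and it is needed for the first asymmetric divisions of founder cells. Reads of these genes chose the cells, so their levels describe the groups and support nothing.

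LBD16 reads ranged from 2 to 997 per cell in LBD16 cells, with a median of 59, or 163 when scaled to CPM, the usual depth-scaled read count. IAA28 reads ranged from 1 to 1820 in IAA28-only cells, with a median of 43, or 153 CPM. Only 3 LBD16 cells and 5 IAA28-only cells rested on 1 or 2 reads, while 33 and 97 cells had 10 or more. Each side also rests on the lack of a read of the other gene. Whether that gene was absent or its reads were missed was not tested. In cells with both, the medians were 192 CPM for LBD16 and 123 CPM for IAA28, and 7 of these 74 cells had 1 or 2 reads of LBD16 and 3 of IAA28. IAA28 was found in 63.8% (54.4 to 72.5) of the 116 cells with LBD16 and in 55.3% (48.3 to 62.3) of the 206 cells without it, and these intervals overlapped. In the 251 wells left out, which had a median of 3922 reads, LBD16 was found in 1 well and IAA28 in 2. The wells of either side that lay nearest to the limit of 500 genes had 734 detected genes just inside it and 386 just outside it.

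With the flow cells pooled, the median depth was lower and the median gene number higher in LBD16 cells. LBD16 cells had a median of 238904 reads (47349 to 1409141) and IAA28-only cells 284577 (29785 to 1459543). By flow cell the median reads were 472063, 377435 and 143174.5 against 435962, 458988.5 and 135866.5, lower in LBD16 cells only on the second. The median number of detected genes was 4786 (1216 to 9516) in LBD16 cells and 4049 (734 to 8136) in IAA28-only cells. By flow cell these medians were 4733, 3223 and 5823 against 4709, 4150 and 3847, so the excess came from the third flow cell. After thinning to 129072 reads, which left out 8 and 23 shallower cells, the medians were 4312 and 3941 genes. By flow cell the thinned medians were 4311.5, 3564.5 and 4760 against 4500, 3769 and 3838, higher in LBD16 cells only on the third. Beside these gene numbers, 65.9% of the measured genes had a read in a larger share of LBD16 cells, by a median of 3.76 percentage points, or 1.97 after thinning. The part of gene number in the results below was not tested.

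**Figure D1:**
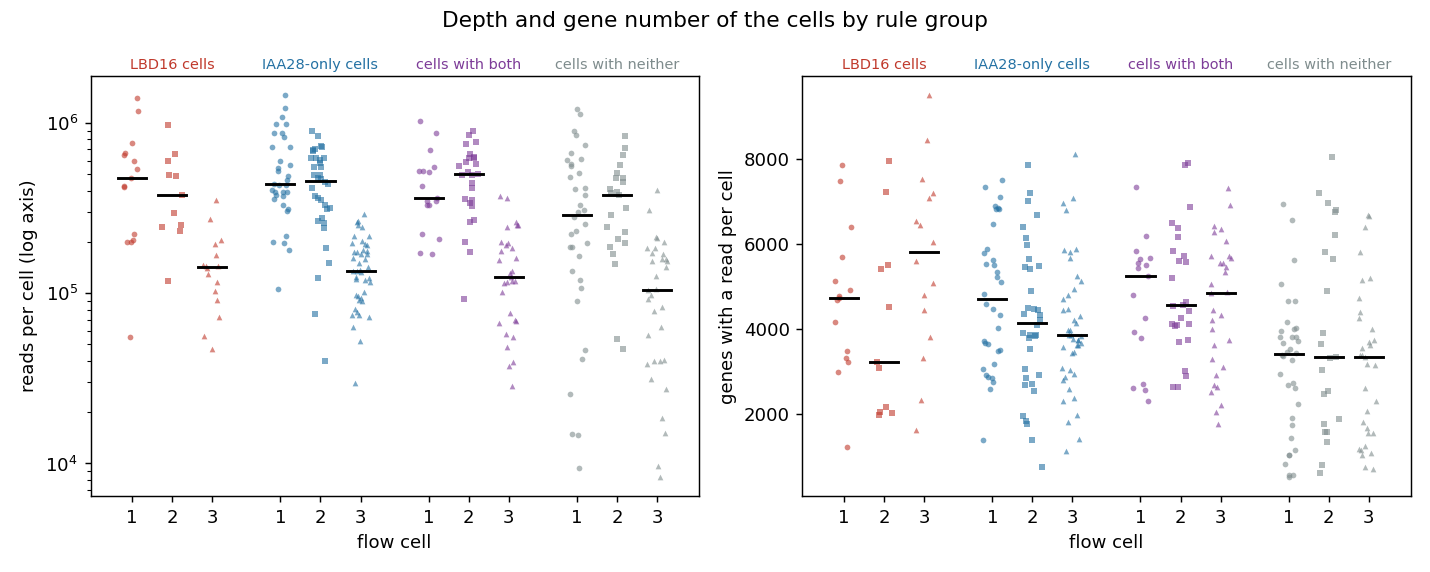
Reads per cell (left, log axis) and genes with a read per cell (right) for each of the 322 kept cells, by rule group and flow cell; black bars are medians. The IAA28-only and LBD16 cells overlap over most of their ranges of reads, and cells with neither gene have the lowest gene numbers, with a median of 3369.5.

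Reads were summed over the cells of each side, and a positive log2 ratio of CPM means more in LBD16 cells. A gene was measured with a read in at least 10 of the 156 cells and at least 50 reads. It is called past the fold when the log2 ratio was at least 1 in size, had the same sign within all 3 flow cells, and the share of cells with a read differed the same way. Of 14007 measured genes, 988 (7.05%) were past the fold with more in LBD16 cells and 1341 (9.57%) with more in IAA28-only cells. Without the first flow cell the counts were 1514 and 1641, and without the second 1488 and 1469. Without the top cell of each side per gene they were 420 and 1955, but this took 1 of 42 cells on the LBD16 side and 1 of 114 on the other. Without the trimmed-mean correction they were 1209 and 1172, so which side had more genes turned with the setting. The median log2 ratio of all measured genes was -0.06. These percentages are the background for every list count below. A like sign on every flow cell was part of the call. Flow cell values of genes past the fold therefore describe them and add no support.

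Genes with more in LBD16 cells included a close relative of the reporter gene and genes of metabolism, vesicle transport and RNA binding. HB40 (AT4G36740), a homeodomain-leucine zipper I gene closely related to HB53, was read in 42.9% (27.7 to 59.0) of LBD16 cells and 5.26% (1.96 to 11.1) of IAA28-only cells. Its shares were 33.3, 27.3 and 62.5% against 8.82, 8.33 and 0% on the 3 flow cells. Its level was 63.2 against 4.65 CPM, a log2 ratio of 3.65. HB53 (AT5G66700), whose promoter drove the sorted reporter, was read in 14.3% (5.43 to 28.5) and 12.3% (6.88 to 19.7), and these intervals overlapped.

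AT1G20950, annotated as a phosphofructokinase family protein of sugar metabolism, was read in 52.4% (36.4 to 68.0) of LBD16 cells and 12.3% (6.88 to 19.7) of IAA28-only cells, at a log2 ratio of 2.68. Shares by flow cell were 53.3, 36.4 and 62.5% against 8.82, 11.1 and 15.9%. VTI1B (AT1G26670), a v-SNARE of vesicle transport, stood at 76.2% against 42.1%, and RBP45A (AT5G54900), an RNA-binding protein, at 81.0% against 43.9%. The ribosomal protein gene AT3G07110 reached 81.0% against 42.1%, and RDM1 (AT3G22680), of the RNA-directed DNA methylation pathway, 57.1% against 23.7%. The carboxypeptidase-like gene scpl35 (AT5G08260) was read in 42.9% against 13.2%. The other 5 genes of this group, AT3G10090, AT2G02510, DEG9, AT3G52960 and DRG1, had log2 ratios of 1.31 to 2.38. The largest part of the LBD16-side reads that a single cell held among these 12 genes was 33.0%, for HB40. Without the second flow cell RBP45A, RDM1 and DEG9 had log2 ratios of 0.93, 0.71 and 0.75, short of the fold.

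Genes with more in IAA28-only cells included a phenylpropanoid enzyme, a receptor-like kinase, a glutathione S-transferase and a zinc transport gene. PAL2 (AT3G53260), a phenylalanine ammonia-lyase at the entry to phenylpropanoid synthesis, was read in 83.3% (75.2 to 89.7) of IAA28-only cells and 35.7% (21.6 to 52.0) of LBD16 cells. Its shares were 82.4, 86.1 and 81.8% against 46.7, 18.2 and 37.5%, and the log2 ratio was -1.51. AT1G59740, a major facilitator superfamily transporter, stood at 61.4% against 14.3% (log2 ratio -3.10), although 1 cell gave 72.5% of its reads on the LBD16 side. The receptor-like kinase gene AT4G08850 was read in 58.8% against 21.4%, the lectin-domain gene AT5G03700 in 67.5% against 35.7% and ERD9 (AT1G10370), a glutathione S-transferase, in 72.8% against 35.7%. PCR2 (AT1G14870), PLANT CADMIUM RESISTANCE 2, known from zinc transport, stood at 90.4% (83.4 to 95.1) against 54.8% (38.7 to 70.2) and a log2 ratio of -1.81. The other 6 genes were AT1G08050, AT3G48450, BZIP25, AT1G19380, AT1G71520 and NDB2, at log2 ratios of -1.07 to -1.91. Without the second flow cell AT3G48450, ERD9, BZIP25 and NDB2 had log2 ratios of -0.99, -0.93, -0.95 and -0.93, and without the first AT1G71520 had -0.81, all short of the fold.

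**Figure D2:**
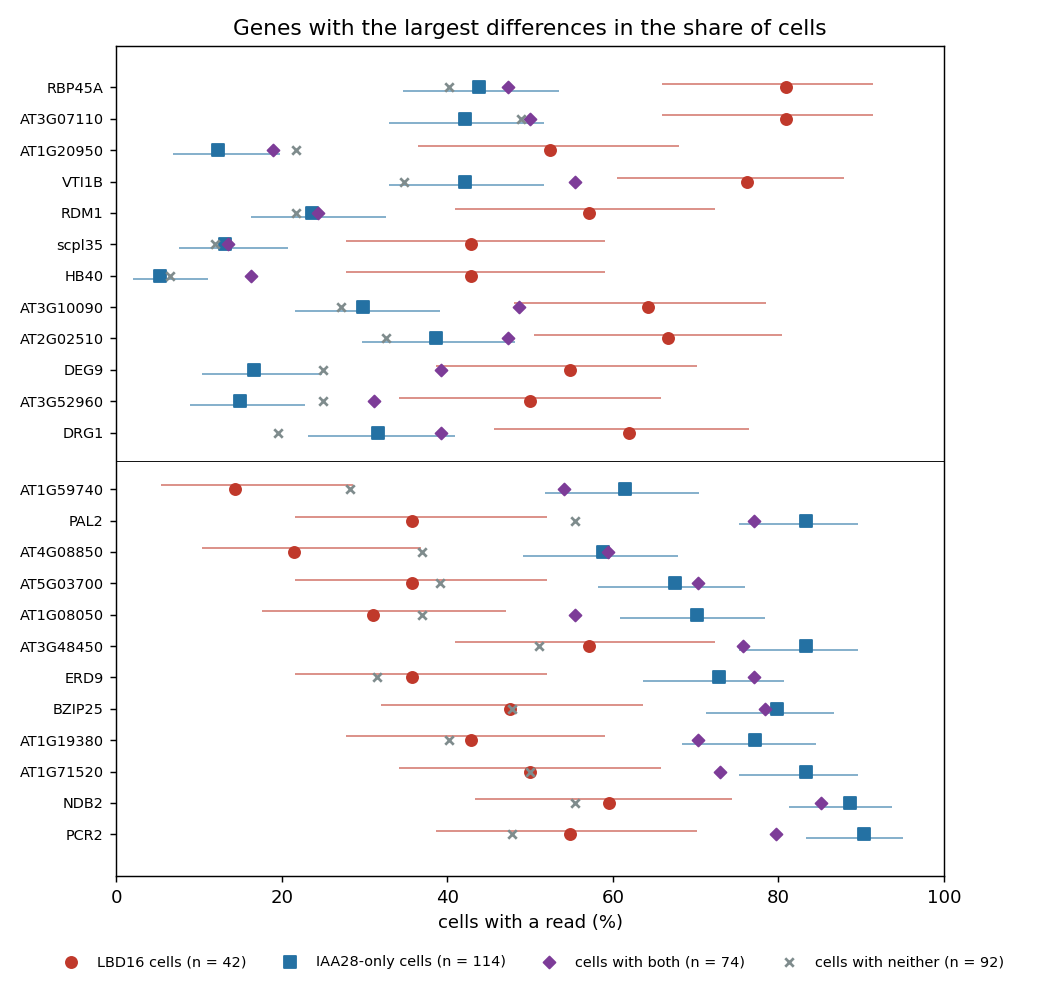
Share of cells with a read (%) for the 12 genes per direction outside the lists with the largest share difference after thinning, in the 4 rule groups; horizontal lines are 95% exact binomial intervals for LBD16 and IAA28-only cells. In the lower block the cells with both genes (diamonds) lie near the IAA28-only cells (squares) for all 12 genes.

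These 24 genes were chosen by the difference between the 2 sides, so the other groups are only described beside them. Cells with both genes lay closer to IAA28-only than to LBD16 cells for 12 of 12 genes in the lower group and 10 of 12 in the upper. Cells with neither gene lay closer to IAA28-only cells for 12 of 12 genes in the upper group, and closer to LBD16 cells for 12 of 12 in the lower. These cells also had the fewest detected genes, and the part of gene number was not tested. Such counts were not taken over all measured genes, so they describe the 24 genes only. PAL2 was read in 77.0% of cells with both, beside 83.3% of IAA28-only cells, and PCR2 in 79.7% beside 90.4%. HB40 lay between the sides, at 16.2%. In cells with neither gene the shares were 55.4% for PAL2, 47.8% for PCR2 and 6.52% for HB40. Cells with both and with neither share no cell with the 2 sides compared. After thinning, 81.8% of the 1341 genes with more in IAA28-only cells were read in a larger share of cells with both than with neither, against 71.6% of all measured genes and 53.0% of the 988 genes with more in LBD16 cells. Without thinning these values were 88.3, 86.1 and 77.4%.

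Among auxin genes past the fold, the Aux/IAA repressors and ARF5 had more in IAA28-only cells, and transport and conjugation genes lay on either side. Of 24 other Aux/IAA genes 17 were measured, and 4 were past the fold, all with more in IAA28-only cells. IAA10 (AT1G04100) was read in 36.8% against 19.0% (log2 ratio -2.13), with 38.2, 38.9 and 34.1% against 20, 9.09 and 25.0% by flow cell. IAA11 (AT4G28640) and IAA18 (AT1G51950) stood at -2.59 and -1.38, and IAA19 (AT3G15540), an auxin-induced member, at -1.03, which passed the fold in 6 of 12 alternative settings. IAA18 stood at -0.58 without the second flow cell, and IAA19 at -0.89 without the first and -0.98 without the third. The list median was -0.27, and -0.47, -1.40 and -0.25 by flow cell. IAA2 (AT3G23030), another auxin-induced repressor, was read in all 114 IAA28-only cells and in 88.1% (74.4 to 96.0) of LBD16 cells, but its log2 ratio was only -0.27.

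Of 15 ARF genes 13 were measured, with 1 past the fold towards LBD16 cells and 2 towards IAA28-only cells. ARF5 (AT1G19850, MONOPTEROS), an activator of vascular and primordium genes, was read in 36.0% (27.2 to 45.5) of IAA28-only and 16.7% (6.97 to 31.4) of LBD16 cells. Its shares were 32.4, 47.2 and 29.5% against 13.3, 18.2 and 18.8%, and the log2 ratio was -2.97. ARF19 (AT1G19220), an activator of LBD16, went the other way, with 33.3% of LBD16 cells against 19.3% and a log2 ratio of 1.03. On the second flow cell its share was lower in LBD16 cells (9.09 against 19.4%), and it passed the fold in 6 of 12 alternative settings, with 0.65 when the first flow cell was left out. ARF7 (AT5G20730), which acts with it, had shares of 38.1% in LBD16 and 38.6% in IAA28-only cells. ARF17 was past the fold at -1.92 with a read in 1 LBD16 cell, and at -0.98 without the third flow cell.

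Among 29 genes of auxin transport, conjugation, synthesis and perception, 19 were measured, 5 past the fold towards LBD16 cells and 2 towards IAA28-only cells. AUX1 (AT2G38120), the main auxin influx carrier, was read in 52.4% (36.4 to 68.0) of LBD16 and 31.6% (23.2 to 40.9) of IAA28-only cells, at a log2 ratio of 1.64. Shares by flow cell were 66.7, 36.4 and 50% against 35.3, 30.6 and 29.5%. The efflux carriers PIN3 (AT1G70940) and PIN7 (AT1G23080) stood at 1.30 and 1.53. PIN3 was past the fold in 9 of 12 alternative settings, with 0.06 when the third flow cell was left out, and PIN7 in 7, with 0.61 when the second was. GH3.5 (AT4G27260) and GH3.2 (AT4G37390), which conjugate auxin to amino acids, stood at 1.72 and 1.92, with 38.1% against 13.2% and 19.0% against 9.65% of cells. GH3.5 came just under the fold without the second flow cell. PID (AT2G34650), a kinase that directs PIN proteins, and the influx carrier LAX2 (AT2G21050) lay on the other side, at -2.07 and -1.74. The list median of 0.56 was 0.88, -0.53 and -0.25 by flow cell, so the list as a whole had no steady direction, and it was -0.52 without the first flow cell.

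The element TGTCTC, which ARFs bind, was looked for with TGTCGG on both strands of the 300 bases before the annotated start of each gene. Of the 6 auxin genes past the fold towards LBD16 cells, 3 held one of them (ARF19, GH3.2 and GH3.5), and of the 8 on the other side 1 did (IAA19), against 17.6% of measured genes and 17.3% of all protein-coding genes. The windows of LBD16, IAA28, HB40 and TMO5 held none. The windows with a match at either end of the order of log2 ratios are given 5′ to 3′ along the gene from RefSeq TAIR10.1, with the element in capitals. They are chr4:17579318-17579617, plus strand, for GH3.2 and chr3:5263701-5264000, plus strand, for IAA19, which holds the element 3 times.
GH3.2: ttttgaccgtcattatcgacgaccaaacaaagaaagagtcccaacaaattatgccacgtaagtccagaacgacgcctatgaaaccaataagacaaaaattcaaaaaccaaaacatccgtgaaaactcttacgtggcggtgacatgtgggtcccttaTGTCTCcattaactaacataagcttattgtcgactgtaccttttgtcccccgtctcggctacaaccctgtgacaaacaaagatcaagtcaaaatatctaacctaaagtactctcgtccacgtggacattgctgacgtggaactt
IAA19: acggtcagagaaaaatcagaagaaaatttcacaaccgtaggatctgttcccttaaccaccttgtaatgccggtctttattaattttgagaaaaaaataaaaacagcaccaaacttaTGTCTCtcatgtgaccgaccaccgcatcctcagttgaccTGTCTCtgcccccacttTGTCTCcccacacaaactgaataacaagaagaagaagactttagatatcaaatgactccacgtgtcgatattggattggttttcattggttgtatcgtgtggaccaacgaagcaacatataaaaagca

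**Figure D3:**
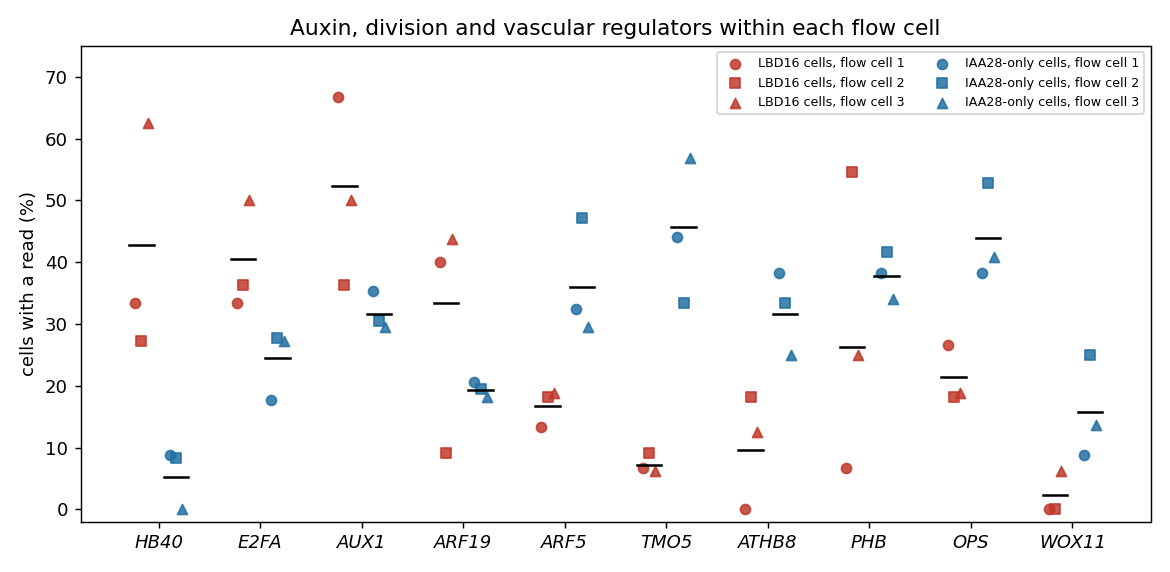
Share of cells with a read (%) for 10 auxin, division and vascular regulators within each flow cell (symbols), with black bars for all cells of a side. HB40 and E2FA are higher in LBD16 cells on every flow cell, and ARF5, TMO5, ATHB8, OPS and WOX11 higher in IAA28-only cells, while PHB and ARF19 are reversed on flow cell 2.

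Vascular regulators past the fold all had more in IAA28-only cells. Of 13 vascular precursor genes 10 were measured, 3 past the fold towards IAA28-only cells and none towards LBD16 cells. TMO5 (AT3G25710), a bHLH factor that starts vascular tissue divisions and is a known target of ARF5, was read in 45.6% (36.3 to 55.2) of IAA28-only cells and in 3 of 42 LBD16 cells (7.14%, 1.5 to 19.5). Shares by flow cell were 44.1, 33.3 and 56.8% against 6.67, 9.09 and 6.25%, and the log2 ratio was -1.69. Cells with both held it in 44.6% and cells with neither in 23.9%. The others were the class III homeodomain genes ATHB8 (AT4G32880) and PHB (AT2G34710), which pattern the vascular cylinder. ATHB8 was read in 31.6% (23.2 to 40.9) against 9.52% (2.66 to 22.6) of cells, with 38.2, 33.3 and 25.0% against 0, 18.2 and 12.5%, and a log2 ratio of -2.72. A single cell gave 91.9% of its reads on the LBD16 side, and the log2 ratio was -0.88 without the first flow cell. PHB had a log2 ratio of -3.31 but shares of 37.7 and 26.2%, and on the second flow cell more LBD16 cells held it (54.5 against 41.7%). TMO6 (AT5G60200), a DOF factor of young vasculature, was read in 50% of LBD16 and 54.4% of IAA28-only cells, and REV (AT5G60690), another class III gene, in 40.5% and 31.6%. The list median was -0.25, with 0.52, -1.75 and -0.57 by flow cell, and it stood at -1.67 when the first flow cell was left out but at 0.48 when the second was. At least 2 of the 13 genes were found in 72.8% (63.7 to 80.7) of IAA28-only and 57.1% (41.0 to 72.3) of LBD16 cells.

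Phloem genes had a median log2 ratio of -1.44 over 6 measured of 11, with 2 past the fold. OPS (AT3G09070), which promotes early phloem, was read in 43.9% (34.6 to 53.5) against 21.4% (10.3 to 36.8) of cells, with 38.2, 52.8 and 40.9% against 26.7, 18.2 and 18.8%, and a log2 ratio of -1.59. SMXL5 (AT5G57130) stood at -1.68 with nearly equal shares of 14.9 and 14.3%, and was not past the fold without the second flow cell. The phloem median was 0.09 on the first flow cell, and -2.26 and -1.80 on the others.

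Primordium and stem cell regulators were past the fold about as often as all measured genes. Of 29 genes 19 were measured, 2 past the fold towards LBD16 cells (E2FA and PLT5) and 1 towards IAA28-only cells (WOX11). Among all measured genes 16.6% were past the fold in either direction. WOX11 (AT3G03660), a homeobox gene known from founder cells of adventitious and wound-induced roots, was read in 15.8% (9.63 to 23.8) of IAA28-only cells with 2175 reads. It was read in 1 LBD16 cell with 9 reads (log2 ratio -6.58), and in 16.2% of cells with both. PLT5 (AT5G57390), an AP2-type gene of primordium formation, stood at 1.16, with 40, 45.5 and 50% against 32.4, 41.7 and 36.4% of cells, and at 0.96 without the second flow cell. E2FA (AT2G36010), a transcription factor of cell cycle entry known as a target of LBD18 and LBD33, stood at 2.45, with 33.3, 36.4 and 50% against 17.6, 27.8 and 27.3%.

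Several other regulators were found in a larger share of LBD16 cells without passing the fold. LRP1 (AT5G12330), a zinc finger gene of primordia, was read in 78.6% (63.2 to 89.7) against 51.8% (42.2 to 61.2) at a log2 ratio of 0.89, with 80.0, 72.7 and 81.2% against 55.9, 52.8 and 47.7%. CRF2 (AT4G23750), a cytokinin response factor, stood at 31.0% (17.6 to 47.1) against 7.02% (3.08 to 13.4), but at 13.3 against 17.6% on the first flow cell. For SCR (AT3G54220), a ground tissue and stem cell regulator, the shares were 26.2% against 8.77%, and for PUCHI (AT5G18560), an AP2/ERF gene that limits primordium growth, 16.7% against 8.77%, each lower in LBD16 reads on the first flow cell (log2 ratios -0.72 and -1.83). In all, 16 of the 19 measured genes were read in a larger share of LBD16 cells, beside the 65.9% of all measured genes.

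At least 1 of 5 close relatives of LBD16 was read in 16.7% (6.97 to 31.4) of LBD16 cells, 13.2% (7.56 to 20.8) of IAA28-only cells, 23.0% of cells with both and 10.9% of cells with neither. LBD33 (AT5G06080), which forms dimers with LBD18, was the only 1 of 5 that was measured, at 7.14% against 10.5% of cells. LBD18 (AT2G45420) had 8 reads in 1 LBD16 cell and none in IAA28-only cells, and LBD29 (AT3G58190) had 129 reads in IAA28-only cells and none in LBD16 cells. No read of GATA23 (AT5G26930), a founder cell gene, was counted on either side, and the exact intervals for the share of cells with a read reach 8.41% for 0 of 42 LBD16 cells and 3.18% for 0 of 114 IAA28-only cells.

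Division genes were found in a larger share of LBD16 than of IAA28-only cells, without a single direction across the list. The cells with most of the G2 and M phase genes lay outside these sides. Up to 21 of them were read in a cell with neither gene and up to 16 in a cell with both. The most in an LBD16 cell was 7, and in an IAA28-only cell 5. At least 1 of 22 G2 and M phase genes was read in 78.6% (63.2 to 89.7) of LBD16 and 47.4% (37.9 to 56.9) of IAA28-only cells, with 80.0, 63.6 and 87.5% against 52.9, 47.2 and 43.2%. After thinning the shares were 67.6% (49.5 to 82.6) and 47.3% (36.7 to 58.0), and these intervals overlapped. Of 8 measured genes, CYCA2;4 (AT1G80370), an A-type cyclin, and KNOLLE (AT1G08560), the syntaxin of the cell plate, were past the fold towards LBD16 cells at 2.47 and 3.90. CYCB1;1 (AT4G37490) and CDKB1;1 (AT3G54180), a mitotic cyclin and its kinase class, lay on the other side at -4.67 and -4.41. These values came from few cells: KNOLLE was read in 5 LBD16 and 5 IAA28-only cells, and CYCB1;1 in 2 and 9. CDKB1;1 was not past the fold without the first flow cell. Of 14 measured S phase genes, the helicase subunit MCM3 (AT5G46280) and the sliding clamp PCNA1 (AT1G07370) were past the fold towards LBD16 cells at 1.66 and 1.53. The S phase list median was -0.12, with -1.25, -0.26 and 0.94 by flow cell. Its sign turned with the flow cells used, at 0.74 without the first and -0.89 without the third. All 14 genes were read in a larger share of LBD16 cells, beside 65.9% of all measured genes. The D cyclins and kinase inhibitors had 1 of 11 measured past the fold, KRP6 (AT3G19150) at -1.27. Its direction turned, to 0.11, when each cell weighed the same, and it was not past the fold without the first or the third flow cell.

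Ribosomal protein genes lay mostly on the LBD16 side. This list of 314 genes was taken by RefSeq product name after the named genes had been seen. It also holds nuclear genes for organellar ribosomes. Some members were matched only by a family or domain name, such as genes annotated as elongation factor EF1B or ClpS adaptor families. Of 275 measured, 86 were past the fold towards LBD16 cells and 3 towards IAA28-only cells, against 7.05% and 9.57% of all genes. The median log2 ratio was 0.89, with 0.68, 0.92 and 1.17 by flow cell, and 245 of the 275 lay above 0. Within the cells, these genes took a median of 3.43% of reads in LBD16 cells (0.395 to 18.6) and 1.78% in IAA28-only cells (0.360 to 12.6). By flow cell the medians were 2.91, 1.73 and 6.52% against 2.03, 1.64 and 1.63%, so that the sides were closest on the second and farthest apart on the third. Cells with both had a median of 2.25% and cells with neither 2.20%. Gene number moved with this result on the third flow cell. Among cells with 3000 to 4500 genes the medians were 7.54% (9 LBD16 cells) and 1.44% (45 IAA28-only cells), and among those with 4500 to 6000 genes 2.52% (12) and 2.73% (25). These 2 bins leave out the cells below 3000 and above 6000 genes on both sides, for which no medians were taken. The part of gene number in the result was not tested.

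**Figure D4:**
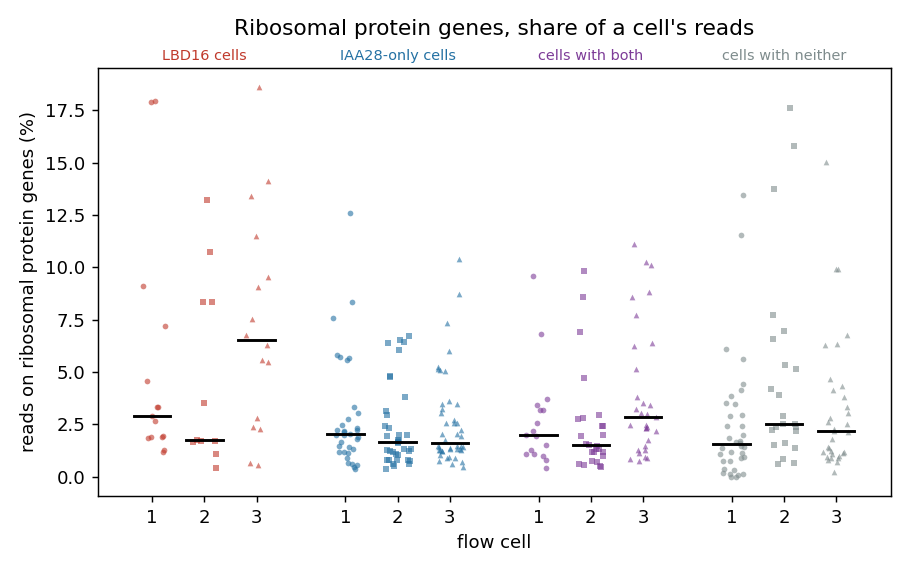
Share of each cell's reads on the 314 genes of the ribosomal protein list (%), by rule group and flow cell. Points are cells and black bars medians. LBD16 cells on flow cell 3 have the highest median, 6.52%, and 19 of 42 LBD16 cells reach 5% or more, as do 20 of 114 IAA28-only cells.

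Plant ribosomal protein genes often carry site II elements and telo boxes before their start. TGGGCC, a form of site II, was found on either strand in 46.9% of the 300-base windows of measured ribosomal protein genes, 20% of measured genes and 14.6% of all protein-coding genes. For the telo box AAACCCTA the shares were 13.1, 4.38 and 5.21%. The 86 genes past the fold had 46.5% and 17.4%, near the whole list. Among those 86, the windows of AT3G11120 (chr3:3480720-3481019, plus strand) and AT2G37600 (chr2:15775375-15775674, minus strand) belong to the genes with the highest log2 ratios that hold both motifs and overlap no annotated gene. Their log2 ratios were 1.11 and 1.04. They are given 5′ to 3′ along the gene from RefSeq TAIR10.1, with both motifs, on either strand, in capitals.
AT3G11120: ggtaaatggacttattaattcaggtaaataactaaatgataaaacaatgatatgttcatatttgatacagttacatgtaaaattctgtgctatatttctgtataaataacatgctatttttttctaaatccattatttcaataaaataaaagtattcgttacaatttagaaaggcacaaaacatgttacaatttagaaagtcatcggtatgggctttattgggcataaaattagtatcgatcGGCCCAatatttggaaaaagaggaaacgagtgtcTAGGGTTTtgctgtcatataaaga
AT2G37600: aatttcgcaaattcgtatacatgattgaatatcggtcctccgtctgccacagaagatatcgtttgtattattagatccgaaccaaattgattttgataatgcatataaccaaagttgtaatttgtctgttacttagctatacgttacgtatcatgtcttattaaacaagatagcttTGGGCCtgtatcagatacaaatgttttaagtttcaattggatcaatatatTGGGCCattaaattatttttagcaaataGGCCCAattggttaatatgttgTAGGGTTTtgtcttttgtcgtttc

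Cytokinin genes past the fold all had more in IAA28-only cells, 4 of 12 measured. They were the receptor AHK4 (AT2G01830) at -1.69, the response regulator ARR5 (AT3G48100) at -2.74, the cytokinin oxidase CKX6 (AT3G63440) at -3.14 and AHP6 (AT1G80100), an inhibitor of cytokinin signalling, at -3.48. CKX6 and AHP6 had 4 and 5 reads in LBD16 cells, and ARR5 stood at -0.98 without the first flow cell. The list median of -0.80 became 0.13 in thinned cells and 0.11 without the second flow cell. In the cell wall list 1 of 8 measured genes was past the fold, XTH4 (AT2G06850), a xyloglucan-modifying enzyme, at 1.03 with 57.1% (41.0 to 72.3) against 28.9% (20.8 to 38.2) of cells, and at 0.96 without the second flow cell.

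Genes of protoplasting and stress responses were read in nearly every cell. At least 2 of these 17 genes were read in 97.6% of LBD16 and 99.1% of IAA28-only cells. Of 16 measured, JAZ8 (AT1G30135), a jasmonate repressor, was past the fold at -2.05, though not without the first flow cell, and the median was -0.36, with -0.70, -0.56 and -0.01 by flow cell.

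Markers of most other root tissues were sparse on both sides. MYB36 (AT5G57620), a master regulator of the endodermal barrier, was read in 16.7% (6.97 to 31.4) of LBD16 and 2.63% (0.546 to 7.50) of IAA28-only cells, with 13.3, 18.2 and 18.8% against 2.94, 2.78 and 2.27% by flow cell. Its log2 ratio was 1.23, with 0.03, 2.82 and 0.52 by flow cell and 0.25 without the second, and it was past the fold in 8 of 12 alternative settings. The barrier genes CASP1, CASP4, CASP5 and ESB1 had no read in LBD16 cells, and at least 1 of 12 endodermis genes was found in 26.2% (13.9 to 42.0) against 12.3% (6.88 to 19.7) of cells. Pericycle genes had no member past the fold among 4 measured, and at least 1 of the 5 was read in 40.5% (25.6 to 56.7) of LBD16 and 52.6% (43.1 to 62.1) of IAA28-only cells. No root cap gene had a read in LBD16 cells, and at least 1 marker of xylem and cortex was read in 4.76% of LBD16 cells each, against 7.02% and 5.26%. For epidermis and root hair markers the shares were 14.3% against 5.26%, and for green tissue 11.9% against 25.4%, where RCA (AT2G39730) of the chloroplast was past the fold at -2.27. Summed over a list, these markers took at most 0.0636% of a cell's reads in LBD16 cells for the endodermis and 0.00601% for the epidermis. In IAA28-only cells the highest values were 0.0547% and 0.515%.

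**Figure D5:**
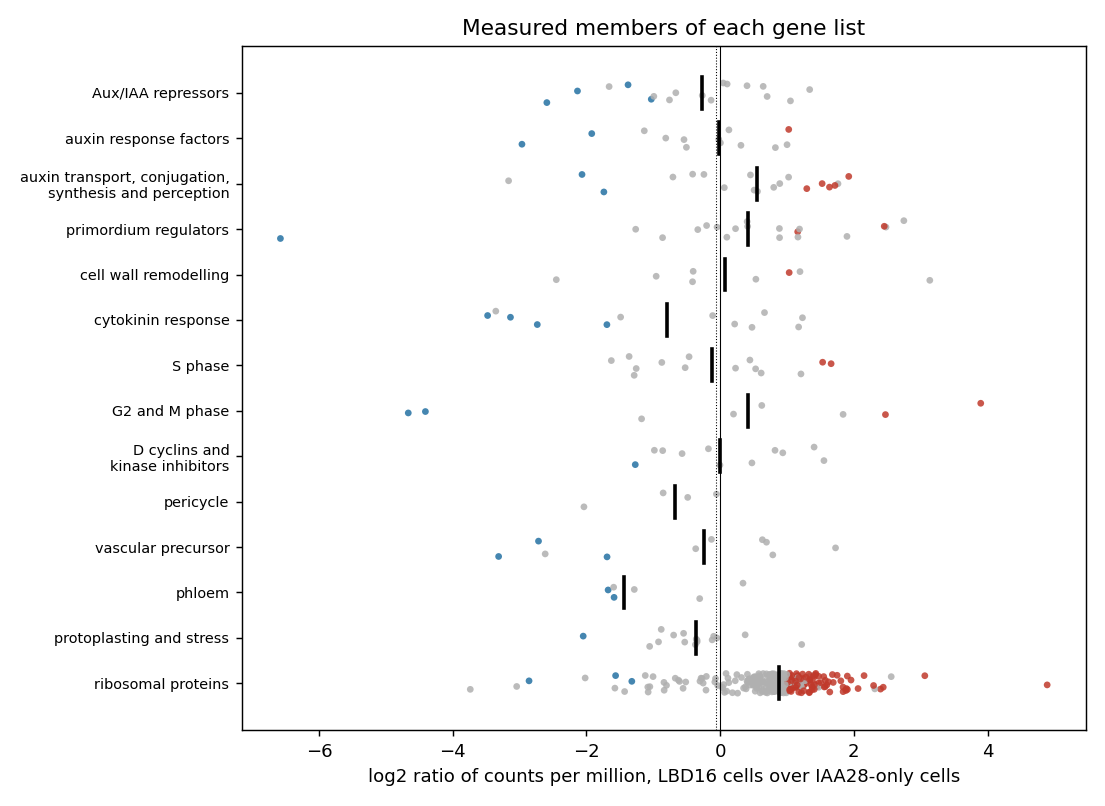
Log2 ratio of CPM in LBD16 over IAA28-only cells for the measured members of 14 lists; black bars are list medians, the dotted line is the median of all measured genes (-0.06), and red and blue points are past the fold towards LBD16 and IAA28-only cells. The ribosomal list has the highest median (0.89) and the phloem list the lowest (-1.44).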

How the data were processed

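The deposited values are raw counts of reads in 1 table, whole numbers for 32833 genes in 573 wells, with a text file that lists each well's raw file name, from which flow cell and plate were read, and its sequencing run. Per the submitters' processing notes the build is TAIR10. The sources used here name no aligner, counting rule or strand setting, so values of overlapping, antisense or near-identical genes are uncertain.

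Kept cells had a median of 245742 reads (8315 to 1459543). The planned count model across replicates could not be fitted, since no source used here links wells or their runs with replicates, so all wells are 1 sample. Reads were summed per side, scaled to CPM and corrected by the trimmed mean of M values (30% and 5% cut from each end of M and A, unweighted), which came to 0.12 on the log2 scale. A sum of 0 reads stood at 3 reads per group, and no ratio was formed where both sums were at or under 3. LBD16 and IAA28 were left out of counts and lists. Exact 95% intervals are Clopper-Pearson for shares. Cells were thinned to the percentile 20 of reads (seed 1). Doublets were not called: a column is a well, and a well that took up several cells would not show.

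Named genes were all measured list members and, outside the lists, among genes past the fold with a read in at least 20% of the cells of the higher side, the 12 per direction with the largest share difference after thinning. The members and lists were chosen with earlier results of these data known. HB40's relatives and the ribosomal list were added after values were seen. Gene symbols came from RefSeq TAIR10.1, which matched 32548 of 32833 loci. The code of the comparison was checked on simulated counts with set changes and no flow cell differences. That check does not show how often unchanged genes pass the fold in these cells. Python 3.11.15, numpy 2.4.6, pandas 2.3.3, scipy 1.17.1 and matplotlib 3.10.9 were used. The alternatives tried are given with their effect in the closing part.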

Additional observations from a re-analysis of the deposited data

How the results depend on the processing

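Of the 61 named or past-fold list genes, 60 kept the sign of their log2 ratio in all 12 settings tried for single genes, and 24 stayed past the fold in each. KRP6 turned to 0.11 when each cell weighed the same. The number of genes past the fold towards LBD16 cells (988) became 420 without the top cell of each side per gene and 481 with genes read in 30 or more cells, and ranged from 1100 to 1514 with 1 flow cell left out. Towards IAA28-only cells (1341) it became 736 with genes read in 30 or more cells, and stayed between 1172 and 1955 in the other settings. Fewer genes are tested with the stricter filter, and fewer flow cells must share a sign when 1 is left out. Without the top cells the median of all genes was -0.39. That setting took 1 of 42 cells from the LBD16 side and 1 of 114 from the other. Read totals and the trimmed-mean correction stayed those of all cells, so LBD16 sums tended to lose a larger part. Its counts for the 2 sides therefore cannot be set against each other. How much of the lower count came from this was not tested. With 3000 or more genes per well, an alternative chosen after seeing the data, cells with neither gene numbered 54. Of the 988 and 1341 genes, 512 and 875 were shared with the thinned cells. The ribosomal median lay between 0.77 and 1.07 and the phloem median between -1.72 and -0.58 in 12 settings. The values of 0.77 and -1.72 came from the setting without the top cells. The auxin transport and conjugation median was -0.52 without the first flow cell. No paired analysis was possible because no label or file used here links wells, or the sequencing runs listed for them, with replicates.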

Other observations

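Outside the ribosomal list, the 890 genes past the fold towards LBD16 cells held the site II form TGGGCC in 23.4% of their 300-base windows, against 12.3% of genes past the fold towards IAA28-only cells and 20% of measured genes. The telo box was found in 6.52%, 2.50% and 4.38%. For either auxin response element, the shares were 20.5% of all genes past the fold towards LBD16 cells, 17.7% on the other side and 17.6% of measured genes. These shares have no test and no explanation was examined.

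Of the homeodomain-leucine zipper genes close to HB53 that were looked at, HB40 was the only 1 read in enough cells to be measured. HB21 (AT2G18550) had 2 reads in LBD16 cells and 4 in IAA28-only cells, and HB22 (AT2G36610) had 436 reads in a single IAA28-only cell and none in LBD16 cells.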
